A study of Mus musculus with 35 samples.

Results

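Open chromatin was compared between mouse embryonic fibroblasts (MEFs) under the treatments labelled Basal and Ctr (Control), both at day 4 of reprogramming. The comparison takes in 4 of the 35 samples of the series, 2 ATAC-seq libraries of Basal and 2 of Control, chosen by their labels alone. The other 10 ATAC-seq libraries, 2 for each of 5 treatments, were used only to place these 4. According to the study's methods the fibroblasts were isolated from embryos of ICR mice, and the labels give all samples the same fibroblast medium followed by a medium for induction of extraembryonic endoderm (XEN)-like cells. The names of the other treatments (6FAE, AE, C6AE, C6FAE, CFAE) list chemicals by a letter or digit, and neither Basal nor Ctr names one. Neither the labels nor the paper say what the Basal cells received, or how they differed from the Control cells, so the contrast is between 2 labels and not between a stated treatment and its vehicle. The paper's methods call the 2 Control libraries biological replicates. For Basal neither the labels nor the paper say whether the libraries came from separate cultures, and the spread between them may be technical. The fibroblast identity could not be checked against marker genes, because the positions are on the mm9 build and no annotation of that build was used here.

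ATAC-seq reads come from DNA that a transposase could reach, so they pile up at promoters, enhancers and other sites free of nucleosomes. Histone H3 trimethylated at lysine 4 (H3K4me3) sits mainly around active promoters and other CpG-rich start sites, and H3K27me3 is the mark that Polycomb complexes place on silenced developmental genes. Promoters that carry both marks are called bivalent. Open regions away from both marks include many enhancers, whose use differs more between cell types than that of promoters. In the conversion of fibroblasts to XEN-like cells, the fibroblast program has to close while sites of the new program open.

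Signal was read in 2 ways. The authors merged the libraries of a treatment and deposited RPKM (read density per kilobase of region, corrected for sequencing depth) for 36431 regions, 74.6 Mb in all, with a median length of 1479 bp and 1 column for each of the 7 treatments. Since the Basal and the Control column each stand for both libraries of their label, these columns have no replicates and carry no test. The replicates can be seen only in the peak list of each library, where MACS gives the pileup (the number of extended tags stacked at the highest point), the fold enrichment and a -log10 q for each peak. The Basal libraries held 6784105 and 7337786 tags and the Control libraries 3800049 and 4798705, against 3346418 to 8764791 in the other 10. Both Basal libraries were thus deeper than both Control libraries, and depth and label cannot be told apart in these 4 samples.

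Across all regions the merged signal was higher in Basal. The median RPKM was 14.6 in Basal and 11.6 in Control, and 66.6% of regions lay above 0 on the difference of log2(RPKM + 1). The median difference, Basal minus Control, was 0.23, with a 95% order-statistic interval over regions of 0.23 to 0.24 that covers the number of regions and not replicates. At least a 2-fold difference was seen upward in 5167 regions (14.2% of those compared) and downward in 1321 (3.63%). Of the regions 2-fold apart, 79.6% were therefore higher in Basal (95% Wilson interval 78.6 to 80.6%, again over regions and not replicates). This direction depended on the scale: with each column centred on its own median, which removes a shift of 0.30 (log2) between the columns, 2910 regions (7.99%) were higher and 2578 (7.08%) lower, and 53.0% of the changed regions were higher. The most open 10% of regions, by the sum of both columns, had a median difference of 0.0034.

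The shift was spread over the genome. The median difference was above 0 on each of the 21 chromosome names, between 0.17 on chromosome X and 0.28 on chromosome 12, apart from 0.052 for the 2 regions of mitochondrial DNA. The regions 2-fold apart were short: their median length was 894 bp for those higher in Basal and 767 bp for those lower. When regions were cut by length into 5 groups of equal size, in the shortest group (501 to 761 bp) 26.3% were at least 2-fold higher and 8.92% at least 2-fold lower. In the longest group (3046 bp and above) the shares were 1.70% and 0.0686%. The standard deviation of the difference over regions fell from 1.05 to 0.36 between these groups, so that a fixed fold threshold called short regions more often in both directions.

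Regions were then split by overlap of at least 1 bp with the deposited H3K4me3 and H3K27me3 regions, which were themselves collected over the treatments and so do not stand for the state in Basal or Control alone. H3K4me3 alone was met by 9822 regions, H3K27me3 alone by 1879, both marks by 1536 and neither by 23194, or 63.7% of the table. Median lengths were 2923 bp, 1023 bp, 2442 bp and 1092 bp in that order. The classes differed in ATAC-seq signal in both treatments. Regions with H3K4me3 alone had a median of 18.2 RPKM in Basal and 17.1 in Control, while regions with neither mark had 12.8 and 9.40. For H3K27me3 alone the medians were 11.7 and 8.99 RPKM, and for both marks 14.4 and 12.1.

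The difference between Basal and Control was smallest where H3K4me3 was present alone and largest where neither mark was. The median log2 difference was 0.080 (95% interval over regions 0.071 to 0.088) in regions with H3K4me3 alone and 0.36 (0.35 to 0.37) in regions with neither mark. Regions with both marks had 0.21 (0.19 to 0.24) and those with H3K27me3 alone 0.29 (0.25 to 0.32). The distance between the unmarked regions and those with H3K4me3 alone, 0.28, is the same whatever constant is taken from a column, whereas the sign of a class is not. After centring, the medians were -0.23 for H3K4me3 alone, -0.091 for both marks, -0.016 for H3K27me3 alone and 0.054 for neither.

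**Figure D1:**
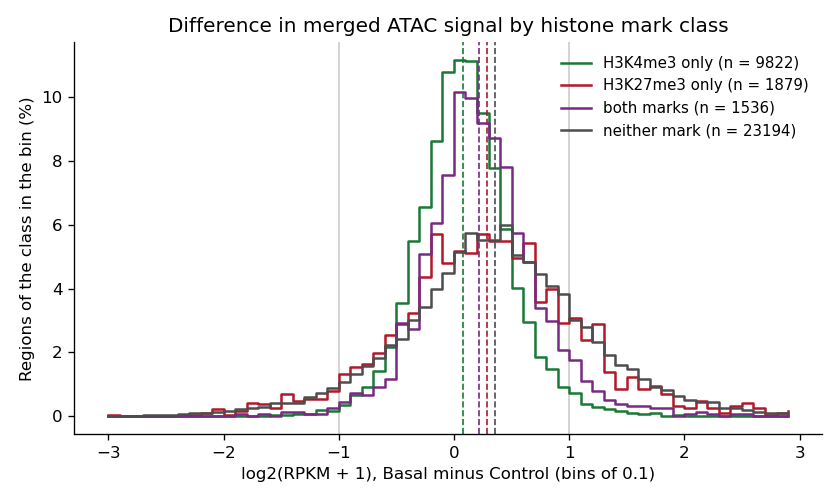
Distribution over regions of the difference in log2(RPKM + 1), Basal minus Control, in bins of 0.1, as the percent of each mark class; dashed lines are class medians, grey lines mark 2-fold, and 90 regions beyond 3 on either side are not drawn. The H3K4me3-only curve is narrow and centred near 0 (median 0.080), and the curve of regions with neither mark is wide and lies to the right (median 0.36).

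Nearly all of the 2-fold differences lay outside H3K4me3. Of the 5167 regions higher in Basal, 4532 had neither mark, 326 H3K27me3 alone, 94 both marks and 215 H3K4me3 alone. These are 19.5%, 17.3%, 6.12% and 2.19% of the regions of each class, against 14.2% of all. Of the 1321 lower regions, 1156 had neither mark, 91 H3K27me3 alone, 12 both marks and 62 H3K4me3 alone, or 4.98%, 4.84%, 0.781% and 0.631% of their classes against 3.63% of all. The standard deviation of the difference was 0.41 with H3K4me3 alone and 0.83 with neither mark. These 2-fold shares by class were not matched for length or spread. Centring turned the balance within the H3K4me3-only class, from 215 higher and 62 lower to 76 higher and 259 lower. It left regions with neither mark at 2629 higher and 2103 lower.

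The classes differ in length and level, which move with the result, so the medians were also taken within 5 groups of equal size by each. In every length group the unmarked regions had the larger median difference, from 0.40 against 0.17 in the shortest to 0.31 against 0.088 in the longest, and the distance between both classes was 0.23 to 0.30. Within groups by mean RPKM the distance was 0.066 at the lowest signal, 0.21 to 0.26 in the 3 middle groups and 0.12 at the highest. Regions with neither mark went from 0.36 in the lowest group and 0.45 in the next to 0.15 in the highest. The distance was therefore present at each length and each level, and smaller at both ends of the signal range.

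**Figure D2:**
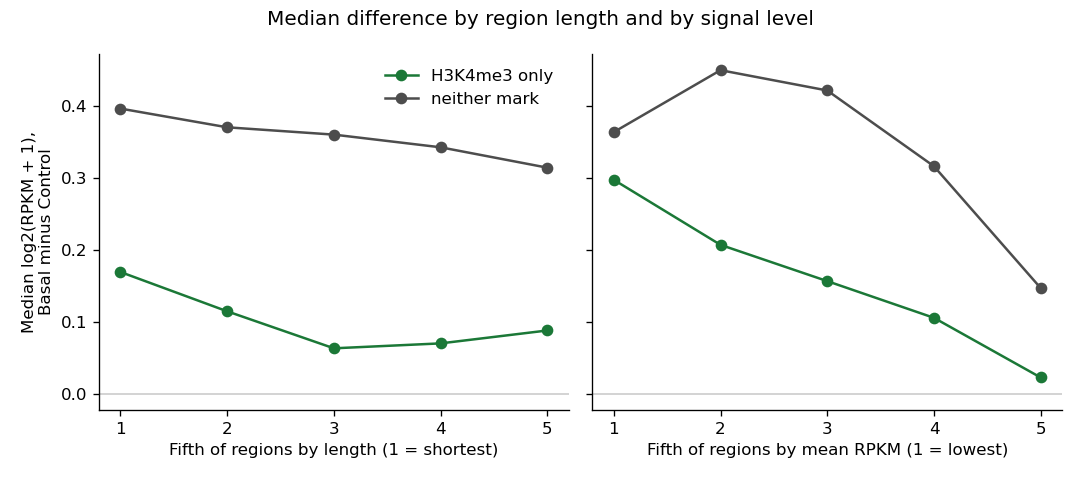
Median difference in log2(RPKM + 1), Basal minus Control, for regions with H3K4me3 alone and with neither mark, within 5 groups of equal size by region length (left) and by the mean RPKM of both columns (right). Unmarked regions lie above the H3K4me3-only regions in all 10 pairs of points, by 0.066 to 0.30.

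The level of the mark and the distance to it were looked at next. Over 4 groups of equal size by H3K4me3 signal in the Basal ChIP-seq column, the median difference of the H3K4me3-only regions was 0.097 in the weakest group (3.21 to 16.3 RPKM) and 0.071 in the strongest, and the share at least 2-fold higher was 3.87% and 1.34%. Over 4 such groups by H3K27me3 signal the median of the H3K27me3-only regions was 0.33 in the weakest and 0.26 in the strongest group. Among the unmarked regions, the 3153 within 10 kb of an H3K4me3 region had a median difference of 0.40, the 12593 at 10 to 100 kb 0.36 and the 7448 farther away 0.34. At least 2-fold higher in Basal were 20.2%, 18.9% and 20.3% of them, so the unmarked regions differed from Control at each distance.

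The other 5 treatments show on which side of the contrast the columns stood apart. The Control column was the lowest of the 7 in 33.4% of all regions and the Basal column in 10.7%. Their median RPKM over all regions were 11.6 for Control, 12.2 for C6AE, 14.3 for 6FAE, 14.6 for Basal, 16.4 for AE, 17.7 for C6FAE and 18.5 for CFAE. The contrast between H3K4me3-only and unmarked regions was also steepest in Control: the class medians of log2(RPKM + 1) were 0.80 apart there, 0.47 in Basal and 0.49 to 0.63 in the other 5 columns. Basal and Control were thus the shallowest and the steepest of the 7 columns by this measure. All of these values are over 1 list of regions. It held 72.1% and 73.9% of the 20000 highest-scoring peaks of the Basal libraries and 56.5% and 45.2% of those of Control. The part of this in the place of the columns was not tested.

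In the regions chosen for a 2-fold difference, where the choice itself fixes Basal and Control, the other columns lay between them by median. Over the 5167 higher regions the medians were 5.08 RPKM in Control and 16.1 in Basal, and 10.0 (C6AE), 12.2 (6FAE), 13.6 (C6FAE), 13.9 (AE) and 15.4 (CFAE) elsewhere. Control was the lowest column in 74.0% of them, and Basal the highest in 30.3%. Over the 1321 lower regions Control had 16.8 RPKM, Basal 5.38 and the others 7.94 (AE) to 9.82 (CFAE). Control was the highest column in 56.7% of these and Basal the lowest in 41.0%. All 5 other columns were nearer to Basal than to Control in 34.9% of the higher regions and nearer to Control in 4.55%. In the lower regions these shares were 26.4% and 12.1%, and over all regions 21.4% and 8.78%.

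**Figure D3:**
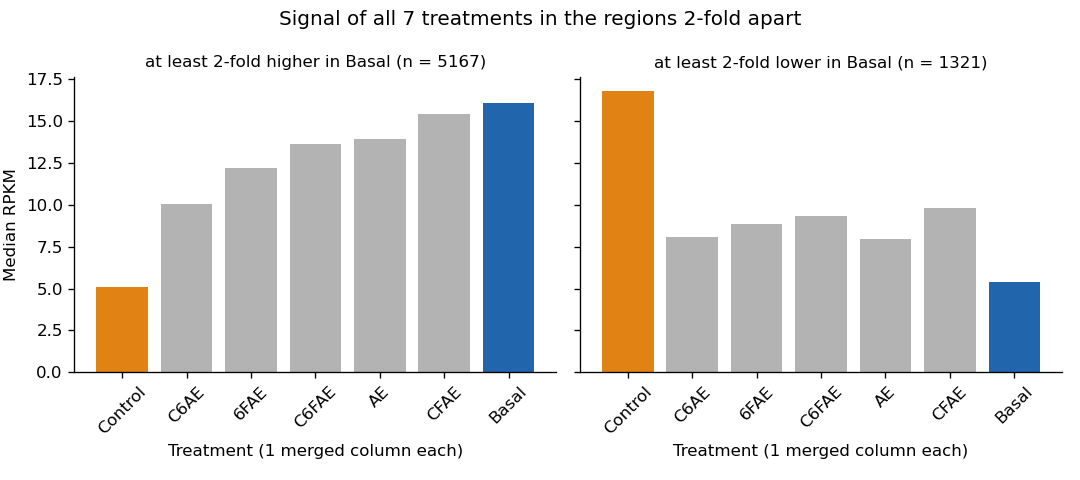
Median RPKM of the 7 merged ATAC-seq columns in the 5167 regions at least 2-fold higher (left) and the 1321 at least 2-fold lower (right) in Basal than in Control; bars start at 0, there is 1 column per treatment and no error bar. The 5 other treatments lie between 10.0 and 15.4 on the left, nearer to Basal (16.1) than to Control (5.08) in all but C6AE, whose median lies about midway.

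The regions chosen on the merged columns were also looked up in the peak lists of the same libraries, as a description of what the columns rest on. Over all regions, 78.2% and 81.9% held a listed peak in the Basal libraries and 75.6% and 80.8% in the Control libraries. Of the 5167 higher regions, 79.2% and 82.0% held one in the Basal libraries and 34.0% and 47.9% in the Control libraries. One of the 20000 highest-scoring peaks of a library stood in 35.4% and 33.7% of them in Basal and in 1.61% and 1.86% in Control. Over all regions these shares were 37.5% and 38.7% in Basal and 29.5% and 23.7% in Control. Of the 1321 lower regions, 23.1% and 29.4% held a listed peak in Basal and 80.2% and 78.2% in Control. By listed peaks, each set lay near the share of all regions in the label where it was higher, and below it in the other label. Since the columns were merged from these libraries, the look-up does not test either set. A listed peak in both Basal and in neither Control library was found in 868 of the higher regions (16.8%, against 2.75% of all regions). The reverse was found in 379 of the lower ones (28.7%, against 2.26% of all).

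The single libraries were compared through their peaks. MACS listed 212524 and 248329 peaks in Basal, covering 142 and 175 Mb, and 309475 and 456793 in Control, covering 185 and 319 Mb. The deeper libraries thus had the shorter lists, and the lowest pileup listed was 3 in both Basal libraries and 2 in both Control libraries. With -log10 q of at least 1.3 the order turned: 6708 and 7313 peaks in Basal and 3040 and 1982 in Control. At a -log10 q of at least 5 there were 325 and 330 against 57 and 49. To set lists of equal size side by side, the 20000 peaks of highest score, called high peaks here, were taken from each library. Of these, 72.1% and 73.9% lay in regions of the table in Basal, and 56.5% and 45.2% in Control.

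The replicates of Basal were more alike than those of Control. The 2 Basal libraries shared 45.7% of their 20000 peaks, counted from the first, and the 2 Control libraries 28.9%. The 4 pairs of a Basal with a Control library shared 31.2 to 37.7%. Counted over table regions with a high peak in either library, the share with one in both was 46.0% for the Basal pair, 40.1% for the Control pair and 37.2 to 41.7% for the pairs between labels, so the place of the Control pair depended on what was counted. Across the 20538 regions where all 4 libraries listed a peak, the correlation of log2 peak height was 0.61 between the Basal libraries, 0.56 between the Control libraries and 0.52 to 0.56 between labels. These correlations run over regions of the same libraries, which are not replicates, and differences in peak quality between libraries are part of them.

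Fewer regions held a high peak in Control than in Basal, above all where no mark was present. Among regions with H3K4me3 alone, 64.3% and 71.5% held one of the 20000 peaks in the Basal libraries and 61.4% and 54.3% in the Control libraries. Among unmarked regions the shares were 27.6% and 25.9% in Basal and 17.0% and 11.5% in Control. Regions with H3K27me3 alone had 19.6% and 20.6% in Basal and 13.5% and 10.4% in Control, and regions with both marks 37.2% and 43.5% against 33.4% and 27.7%. In each of the 4 classes both Basal libraries lay above both Control libraries. The step between labels was largest, as a proportion, in the unmarked class.

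The ratio of the H3K4me3-only share to the unmarked share was 2.33 and 2.76 in the Basal libraries (2.55 ± 0.30, SD, n = 2) and 3.61 and 4.71 in the Control libraries (4.16 ± 0.78, SD, n = 2). The labels did not overlap, and the exact two-sided permutation test gave p = 0.333, which is the smallest value that 2 libraries against 2 can reach. Over the other 10 libraries the same ratio ran from 2.19 to 4.86, and those extremes were the replicates of 1 treatment, 6FAE. The 4 libraries with the highest ratios, 3.61 to 4.86, were also the 4 with the fewest peaks of -log10 q of at least 1.3, and both Control libraries were among them. The other 10 libraries, both Basal libraries included, had ratios of 2.19 to 3.19. The ratio thus moved with the number of such peaks in a library. The 4 libraries with the highest ratios were also among the shallower ones, at 3346418 to 4960248 tags. The first AE library, at 4429869 tags, had a ratio of 2.57. The part of enrichment or of depth in the difference between Basal and Control was not tested. When every listed peak was counted, the ratios overlapped, at 1.36 and 1.32 in Basal and 1.47 and 1.33 in Control.

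**Figure D4:**
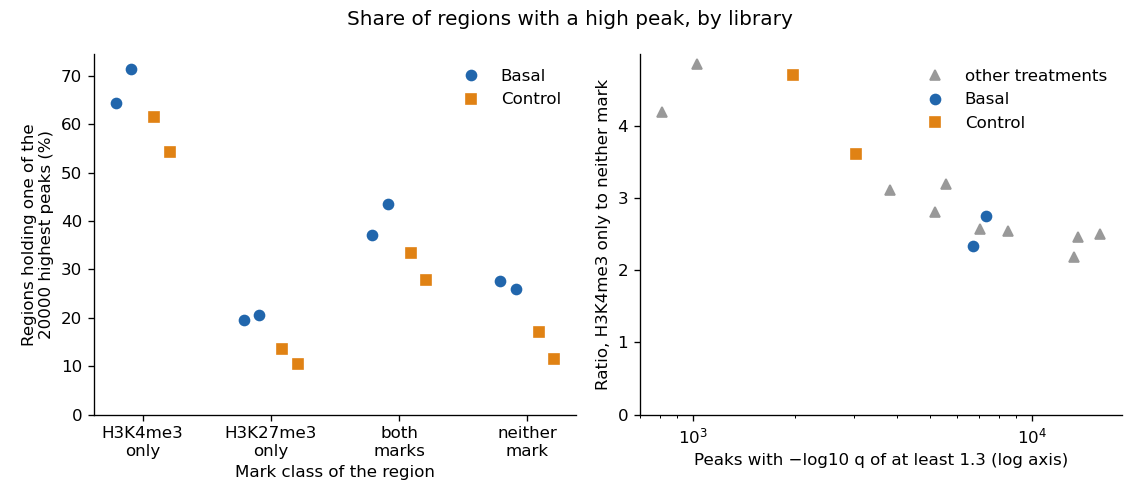
Left, percent of the regions of each mark class that hold one of the 20000 highest-scoring peaks, 1 point per library. Right, ratio of the H3K4me3-only to the unmarked share against the number of peaks with -log10 q of at least 1.3 (log axis) in all 14 ATAC-seq libraries. Both Basal points lie above both Control points in each class, and the Control libraries (3.61 and 4.71) sit with 2 libraries of other treatments at the end with few enriched peaks.

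Regions chosen in 1 pair of libraries were then looked for in the pair that the choice had not used. The choice was a high peak (one of the 20000) in 1 Basal library and none in 1 Control library, and there are 4 such pairs. Among unmarked regions it took 4269 to 5049 regions. Of these, 35.7 to 40.5% held a high peak in the Basal library not used and 12.5 to 21.1% in the Control library not used. Part of this follows from the class as a whole, in which 25.9 to 27.6% and 11.5 to 17.0% of regions held one. The chosen regions were thus above their class by 9.79 to 13.0 percentage points in the other Basal library and by 0.929 to 4.07 in the other Control library. With H3K4me3 alone, 55.1 to 71.2% of the chosen regions recurred in the other Basal library, below the 64.3 to 71.5% of that class in all. In the other Control library the share was 41.4 to 55.2%, below the 54.3 to 61.4% of the class. The step below the class was larger in the other Control than in the other Basal library in all 4 pairs.

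The reverse choice, a high peak in 1 Control library and none in 1 Basal library, took fewer regions. Of the 1328 to 2208 unmarked regions so chosen, 13.9 to 23.6% held a high peak in the other Control library and 24.8 to 29.7% in the other Basal library. Against the whole class, they lay 2.32 to 6.53 points higher in the other Control library, and in the other Basal library 2 of the 4 sets lay below their class and 2 above it. The share of the unmarked class is itself lower in Control (11.5 to 17.0%) than in Basal (25.9 to 27.6%), so points of the 2 choices are not on a like base. Read against the class, the reverse choice thus also carried over among unmarked regions, by fewer points than the choice for Basal. It did not with H3K4me3 alone, at -14.9 to -9.69 points in the other Control library, nor with both marks, at -8.17 to -6.26. The H3K4me3-only sets also lay below their class in the other Basal library. With H3K27me3 alone, and over all regions, the sets lay on both sides of the whole in the other Control library.

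**Figure D5:**
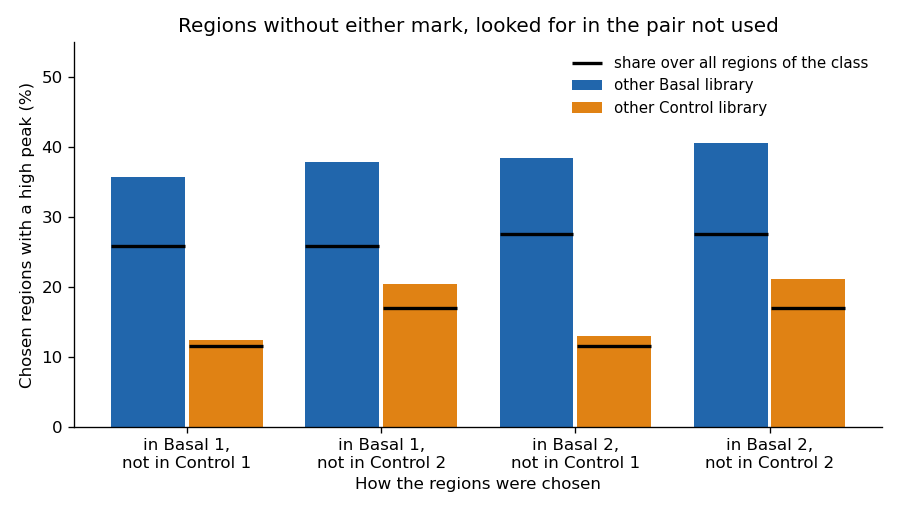
Percent of unmarked regions, chosen for a high peak in 1 Basal and none in 1 Control library, that hold a high peak in the other Basal (blue) and the other Control library (orange); black lines give the share over all unmarked regions. Blue bars reach 35.7 to 40.5% and orange bars 12.5 to 21.1%, with lines at 25.9 to 27.6% and 11.5 to 17.0%.

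The regions that separated both Basal from both Control libraries were few. A high peak in both Basal and in neither Control library was found in 1963 regions (5.39% of 36431), and the reverse in 353 (0.969%). The first group held 1321 unmarked regions (5.70% of the class), 521 with H3K4me3 alone (5.30%), 70 with both marks (4.56%) and 51 with H3K27me3 alone (2.71%), so unmarked and H3K4me3-only regions lay near the share of all regions. The second held 170 (0.733%), 158 (1.61%), 14 (0.911%) and 11 (0.585%) in the same order. With every listed peak the numbers were 1001 (2.75%) and 822 (2.26%). Among merged peaks, counted both inside and outside the table of regions, the balance also followed the list used. Of the 787663 peaks made by merging all 4 lists, 12655 were in both Basal and in neither Control library and 42836 in both Control and in neither Basal library, while the 20000-peak lists gave 2151 and 491. When 1 library was left out, Basal-only peaks numbered 20744 without the first and 30375 without the second Control library, and 102908 and 85897 without the first and second Basal library. Control-only peaks numbered 293356 and 195520 without the first and second Control library, and 56921 and 62371 without the Basal ones. With the 20000-peak lists, Basal-only and Control-only peaks numbered 3765 and 12537 without the first Control library, 3126 and 11183 without the second, 10821 and 883 without the first Basal library and 11299 and 1042 without the second. In both kinds of list the label left with 1 library had more peaks of its own. A peak then needs to be in only 1 library of that label, so these counts do not compare Basal with Control.

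Peak height gave a test with replicates. limma was fitted to the log2 of the highest pileup per 1000000 tags in the same 20538 regions, of which 9629 were unmarked, 9071 had H3K4me3 alone, 1159 both marks and 679 H3K27me3 alone. Of the regions 2-fold apart in the merged columns, only 968 of the 5167 higher (18.7%) and 155 of the 1321 lower ones (11.7%) could be tested. No region passed a Benjamini-Hochberg adjusted p of 0.05 in limma, higher or lower (0% of those tested), and the smallest adjusted p was 0.121. At an unadjusted p under 0.05, 196 regions were higher and 441 lower in Basal. The median difference was -0.059 over all regions tested, -0.023 in unmarked regions, -0.089 with H3K4me3 alone, -0.090 with both marks and -0.092 with H3K27me3 alone. The unmarked regions again had the highest median, but the other 3 classes were level, unlike in the merged RPKM. The sign depended on how height was scaled. With the fold enrichment that MACS lists in place of the pileup, the median was 0.21 (0.18 to 0.23 over the classes), with 3681 regions higher and 35 lower at an unadjusted p under 0.05 and 9 higher and 0 lower past the adjusted threshold in limma. Fold enrichment is the same pileup set against a background level of the library, and it was not divided by tags. It is therefore not an independent measure of height. The Basal libraries were the deeper ones, and the part of depth in its sign was not tested. With pileup, the median standard error of a region was 0.33.

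The lists themselves bound this test. Median heights in unmarked regions were 0.629 and 0.589 per 1000000 tags in Basal and 0.688 and 0.542 in Control, so the Control libraries lay on both sides of the Basal ones, and the same held in the other classes. The Control libraries also differed from each other. Without the first Control library limma called 3 regions higher and 1 lower and the median difference was 0.12. Without the second it called 1 higher and 226 lower, and the median was -0.21. Leaving out either Basal library gave 0 higher and 1 lower. A library enters only where it lists a peak, and a listed pileup cannot be under 3 in Basal or 2 in Control, so low regions of a shallow library are missing from the test or sit at its floor.

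Whether the differences repeated from library to library was also seen region by region. The difference between the first Basal and the first Control library had a correlation of 0.083 with the difference between the second ones over the 20538 regions, and of 0.085 with the Control libraries exchanged. These are descriptions over regions, from pairs that share no library. In unmarked regions the correlations were 0.13 and 0.12, and in regions with H3K4me3 alone 0.025 and 0.044. Regions with H3K27me3 alone had 0.039 and 0.070, and regions with both marks 0.012 and -0.017. Among regions listed in all 4 libraries, differences in height at single regions were thus nearly unrelated between the pairs in every class. Most regions 2-fold apart in the merged columns are not among them.

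Single regions are given by position on mm9, 1-based, as the authors' table lists them, and they rest on pileups of a few tags. Where both Basal libraries and neither Control library listed a peak, the 5 largest increases were all unmarked. At chr2:146991203-146991752 (550 bp) the RPKM was 21.3 in Basal and 0.0855 in Control, with pileups of 4.74 and 3.91 in the Basal libraries, and the other treatments ran from 4.91 to 24.2. At chr12:36336917-36337493 (577 bp) Basal had 30.4 RPKM and Control 0.799, a log2 difference of 4.12, and the Basal pileups were 4.58 and 5.27. It was also the largest increase of an unmarked region by the stricter choice given further on, and Basal was also above the other 5 treatments there (2.14 to 17.0).

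In 3 more of these regions the Control column was listed at 0, so no fold is given. They were chr2:24311314-24311904 with 18.4 RPKM in Basal, chr2:136325882-136326455 with 17.6 and chr6:118571801-118572352 with 14.6. The other treatments were far from 0 at the first (7.58 to 29.3) and the last (11.1 to 30.0). At chr2:136325882-136326455 they ran from 0.605 to 7.70, so that Basal was the highest of the 7 columns there.

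The largest decreases were chosen in the same way, from regions listed in both Control libraries only, and 4 of the 5 are given. At chr5:53007454-53008090 (637 bp) the RPKM was 1.80 in Basal and 33.4 in Control, a log2 difference of -3.62, with Control pileups of 2.74 and 3.07, and the other treatments had 14.5 to 37.1. Basal alone was low there. At chr11:102443051-102444224 (1174 bp) Basal had 3.35 RPKM and Control 36.5, with 6.75 to 14.6 in the other treatments. At chr11:66002044-66002638 the values were 3.98 and 38.4 RPKM, and at chr9:99372459-99373365 they were 1.08 and 15.1. Control stood above all other treatments in the last 3.

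Regions 2-fold apart on both scales, with a high peak in both libraries of the higher label only, were also taken from each mark class. There were 329 regions of this kind higher in Basal (0.903% of all) and 67 lower (0.184%). They were 311 and 56 unmarked regions (1.34% and 0.241% of the class), 12 and 9 with H3K4me3 alone (0.122% and 0.0916%), 6 and 2 with H3K27me3 alone (0.319% and 0.106%), and 0 in either direction with both marks. The largest increase among those with H3K4me3 alone was at chr1:178762772-178764446, with 21.6 RPKM in Basal and 5.01 in Control and pileups of 5.79 and 5.46 in Basal. One Control library listed a peak of 2.25 there. The largest decrease of that class by this choice was at chr9:99475981-99476647, with 8.81 RPKM in Basal and 36.6 in Control.

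By the same strict choice, the largest increase with H3K27me3 alone was at chr6:126985038-126986094, at 16.9 RPKM in Basal and 2.71 in Control, with Basal pileups of 4.45 and 4.87. Its H3K27me3 signal in the Basal ChIP-seq column was 2.83 RPKM, against a class median of 6.54. The largest decrease so chosen was at chr5:100045939-100046959, at 6.04 and 18.9 RPKM, where the first Basal library also listed a peak of 3.62 beside the 3.68 and 3.53 of Control. Its H3K27me3 signal was 4.61 RPKM, so both regions lay in the weakest of the 4 groups by that signal (up to 4.62 RPKM). Among unmarked regions the largest decrease by this choice, smaller than those given above, was at chr13:14589016-14589764, at 6.29 RPKM in Basal and 37.9 in Control. The pileups of that region were 3.52 and 3.12 in Control, and no Basal library listed a peak in it.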

How the data were processed

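Per the labels, each ATAC-seq reaction used 50000 cells, and libraries were amplified for 13 PCR cycles. The submitters' processing notes name Bowtie2, MACS2, deepTools 3.1.0 and the build mm9. Per the file headers, the authors ran MACS 2.1.2 on single libraries for broad peaks (p-value of 0.05, neither local background nor control library), from tags of 150 bp extended to 250 bp with 1 tag kept per position. The deposited lists give the pileup signal, the fold enrichment as a ratio, and the -log10 p and -log10 q of each peak. The headers say that q was not calculated, yet the column holds values, which were used as listed. The authors averaged binned RPKM over each region. For the marks only the regions and the Basal columns were used, and the other 12 columns of both mark tables were not used.

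RPKM values were compared as log2 after adding 1, and a region was called 2-fold apart at a difference of 1. Peak heights were tested with limma 3.58.1 (R 4.3.3, empirical Bayes with a trend) on log2 pileup per 1000000 tags, with Benjamini-Hochberg adjustment. Redundant tags were 1.13 to 1.60% of each of the 4 libraries. No molecular identifiers were used, so reads may repeat molecules, and intervals cover counting error over regions only. Regions were named by rule: the 5 largest increases and decreases where both libraries of one label and neither of the other listed a peak, and in each mark class the largest increase and decrease 2-fold apart on both scales with one of the 20000 highest-scoring peaks in both libraries of one label and in neither of the other. The last part of the rule, on regions passing limma, named none. One of the 5 largest decreases is not reported here. Regions were not joined to genes, and gene lists were not analysed. The members, classes and rules were chosen with earlier results of these data known. Counting, merging and limma were tested on simulated data. Other work was done in Python 3.11.15 (pandas 2.3.3, numpy 2.4.6, matplotlib 3.10.9, scipy 1.17.1).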

Additional observations from a re-analysis of the deposited data

How the results depend on the processing

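The scale between the columns decided the balance of the merged signal. With each column centred on its median, 2910 regions were higher and 2578 lower, a share of 53.0% higher, with a median of -0.072; with quantile normalization these were 2780, 2553, 52.1% and -0.016. Centring on the most open 10% of regions gave 78.4% and a median of 0.22. A pseudocount of 10 left 775 higher and 214 lower (78.4%, median 0.14), and a pseudocount of 0.1 gave a median of 0.25. Leaving out the 25% of regions with the lowest mean RPKM, 3191 were higher and 850 lower (median 0.20), and a 1.5-fold threshold gave 10600 and 3272 (76.4% higher). The autosomes alone gave 5108 higher and 1306 lower (79.6% higher, median 0.23).

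The distance between unmarked and H3K4me3-only regions was 0.27 both with overlap of at least 50% of the ATAC region and with Basal ChIP-seq peaks of -log10 q 1.3 or more. With the 50% overlap the medians were 0.25 for both marks and 0.35 for neither. With the Basal peaks they were 0.11 for H3K4me3 alone and 0.38 for neither. The Basal peaks also changed the classes. H3K4me3 alone then held 13170 regions in place of 9822, H3K27me3 alone 397 in place of 1879. Both marks held 1038 in place of 1536, and neither 21826 in place of 23194. Some regions called unmarked above thus held a Basal H3K4me3 peak, and not all H3K27me3-only regions held a Basal H3K27me3 peak. Centring moved the class medians to -0.23 (H3K4me3 alone), -0.016 (H3K27me3 alone), -0.091 (both) and 0.054 (neither). The ratio between the labels in the library shares (Control over Basal) was 1.63 with 20000 peaks. Under alternatives chosen after seeing the data it was 1.45 with 10000 peaks, 2.68 with peaks of -log10 q 1.3 or more and 1.04 with every listed peak.

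With fold enrichment, which was not divided by tags, in place of pileup, limma called 9 regions higher (median 0.21 against -0.059). It called 2 lower with the peak of largest overlap. Among 905 regions at a -log10 q of at least 1.3 in all 4 libraries, it called 1 lower. Leaving out each library gave 0 to 3 higher and 1 to 226 lower, and a lone library is then assumed to vary like the others. Centring each library, the fit to all 14 libraries, and 2 alternatives chosen after seeing the data (all 14 centred; 32160 regions with a peak in at least 2 libraries) called 0. At an unadjusted p under 0.05 those 4 fits had 152 to 605 higher and 302 to 802 lower. Merged peaks in Basal only and Control only were 2151 and 491 with 20000 peaks and 1750 and 22 with peaks of -log10 q 1.3 or more. Leaving out each library gave 20744 to 102908 and 56921 to 293356, but the label left with 1 library then needs a peak in only that library. Of 45 alternatives over 15 named regions, 0 changed the sign and 1 fell under 2-fold. The cause of these shifts was not tested. No paired analysis was possible because the titles number only one of the 2 Basal libraries.

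Peaks rest on few tags, from a lowest pileup of 2 in Control and 3 in Basal, so a region missing from a list is not shown to be closed in either label.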
